A study of Mus musculus with 9 samples.

Results

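Serpins are a family of proteins that share a fold, and 9 of their genes were described here in mouse heart and skeletal muscle: Serpine2, Serpinf1, Serping1, Serpinh1, Serpinb1a, Serpinb6a, Serpinb6b, Serpinb9 and Serpini1. They were taken by name from the deposited count tables, in which they are 9 of the 587 genes listed for the comparison of transverse aortic constriction (TAC) with sham surgery, and they hold 15 of the 35745 transcripts listed for the comparison of quadriceps with heart. The rule is a list of names and uses no measured value, and all 9 genes passed the count filter in both tables. RNA sequencing covered 3 groups of 3 libraries each, namely sham heart, sham quadriceps and TAC quadriceps, from mice given as C57Bl6 by the labels and as wild-type males of C57Bl/6JCrl by the study's methods. TAC narrowed the aortic arch of the mice around a 27 gauge needle and so put the left ventricle under pressure. Sham mice went through surgery without the constriction. Surgery was done at the age of 8 weeks by the labels, and tissue was taken 12 weeks later. The study used TAC mice as a model of heart failure with muscle wasting, so the question for each serpin was how its RNA differed between the muscles of the sham and the TAC mice, and between muscle and heart of sham mice. Whole tissue was sequenced, so fewer cells of a type and less RNA per cell cannot be told apart.

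Most serpins trap a protease by offering it a reactive loop as bait, after which enzyme and inhibitor stay bound. Some members have lost this activity and carry out other work, such as the folding of collagen. Serpins of clade B lack a classical signal peptide and act mostly inside cells, where they protect against proteases of the cell's own or of neighbouring granulocytes and lymphocytes, while the other members studied here are secreted or stay in the endoplasmic reticulum. In muscle and heart, the secreted serpins bear on plasminogen activation, thrombin, complement and the building of extracellular matrix.

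The 4 clade B genes lie together on chromosome 13 of GRCm38 (mm10), the build used by the authors. By the GENCODE vM21 annotation, Serpinb1a is at chr13:32842092-32851185 on the minus strand, Serpinb6b at chr13:32965209-32979067 on the plus strand, Serpinb9 at chr13:33003250-33017957 on the plus strand and Serpinb6a at chr13:33917918-34002794 on the minus strand. The gap between Serpinb6b and Serpinb9 is 24.2 kb, and that between Serpinb9 and Serpinb6a is 900.0 kb. The coding sequences of Serpinb6a and Serpinb6b are 85.7% identical in a global alignment, while those of Serpinb6a and Serpinb9 are 66.6% identical and those of Serpinb1a and Serpinb6a 58.6%. The other members lie alone among the 9, with Serpine2 at chr1:79794197-79861180, Serping1 at chr2:84765387-84775444, Serpinh1 at chr7:99345376-99353239 and Serpinf1 at chr11:75409769-75422701 on minus strands, and Serpini1 at chr3:75557547-75643495 on the plus strand.

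The stretches before 4 starts are shown because they belong to the 3 genes with the largest log2 fold changes between quadriceps and heart after TMM scaling (with library totals, Serpini1 and Serpinh1 pass Serpinb6a), and because Serpinb6a has 2 RefSeq promoter entries. By GENCODE, its transcripts NM_009254, NM_001164118 and NM_001164117 begin at different bases around the nearer of these starts, and NM_001243192 begins at the far one. Each stretch is given 5′ to 3′ from RefSeq on GRCm38.p6, from 250 bases before the start up to the first base that GENCODE places in an exon of the gene. Capitals mark CANNTG, the E-box that basic helix-loop-helix factors of muscle are known to bind.
Serpine2, chr1:79858697-79858915, minus strand: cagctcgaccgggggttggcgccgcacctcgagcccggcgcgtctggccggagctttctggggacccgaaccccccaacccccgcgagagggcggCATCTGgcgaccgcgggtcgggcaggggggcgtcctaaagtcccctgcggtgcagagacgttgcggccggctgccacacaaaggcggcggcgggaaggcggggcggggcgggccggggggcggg
Serpinb6a, start nearer to the coding exons, chr13:33936199-33936333, minus strand: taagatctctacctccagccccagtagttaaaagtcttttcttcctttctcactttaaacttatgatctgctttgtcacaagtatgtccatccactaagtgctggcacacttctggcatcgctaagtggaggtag
Serpinb6a, far start, chr13:34002795-34003044, minus strand: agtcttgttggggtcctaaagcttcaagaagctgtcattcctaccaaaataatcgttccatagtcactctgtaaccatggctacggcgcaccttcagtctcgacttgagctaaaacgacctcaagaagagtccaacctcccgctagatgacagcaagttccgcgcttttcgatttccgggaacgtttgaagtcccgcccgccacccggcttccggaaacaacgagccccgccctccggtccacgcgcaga
Serpinb6b, chr13:32965011-32965208, plus strand: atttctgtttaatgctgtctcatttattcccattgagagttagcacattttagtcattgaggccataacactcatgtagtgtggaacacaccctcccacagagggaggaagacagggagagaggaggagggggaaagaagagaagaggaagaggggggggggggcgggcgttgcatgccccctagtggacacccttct

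RefSeq promoter entries were found for 7 of the 9 genes, with 8 entries in all. Over the full 250 bases, CANNTG, which reads the same on both strands, was found 4 times in Serpinf1, 2 times in Serpini1 and before the nearer start of Serpinb6a, and 1 time in Serpine2 and in Serpinb9. Both matches of Serpinb6a lie in the part that is not printed. No CANNTG was found before the far start of Serpinb6a, in Serpinb6b or in Serpinh1, against a share of 66.2% of 32851 mouse promoters of this length that hold one. The letters GGGCGG, searched on both strands, were found 6 times in Serpine2, whose 250 bases hold 78.8% G and C. The median over all promoters is 52.4% G and C, and 32.7% of them hold GGGCGG. Such matches describe letters and do not show that a factor binds.

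Library totals ran from 23383452 to 38382751 counts in the sham tissues and reached 48614494 and 48999600 in the TAC libraries 1 and 2. The third TAC library carries the number 4 in the count table, and its total was not used here. Replicates differed by more than sampling noise in every pair. The table for TAC lists a selected set of genes, not all of them for secreted proteins. The listed genes make up 2.40% to 3.05% of a library's counts. The tissue labels matched their markers. Summed heart muscle markers (Myh6, Tnnt2, Tnni3, Myl2, Nppa and Ryr2) were at 33280 to 35430 CPM (counts per 1000000 of the TMM-scaled library) in heart and at 134 to 148 in quadriceps, and summed skeletal muscle markers (Myh4, Acta1, Ckm, Tnnt3, Tnni2 and Ryr1) were at 66880 to 94790 in quadriceps and at 1147 to 1328 in heart. The labels number the replicates without saying that each is a separate mouse, so p-values measure the spread between these libraries.

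Per base of transcript, the authors' RPKM values (reads scaled to transcript length and library size) put Serpinh1, the collagen chaperone also known as HSP47, first in heart, at a level of 49.2 ± 0.720 (SD, n = 3). Serping1, Serpinb6b and Serpinb6a followed at mean levels of 34.2, 33.5 and 32.1 RPKM with overlapping ranges. Below them came Serpinf1 at 15.1, Serpine2 at 7.39, Serpinb9 at 4.42, Serpini1 at 2.09 and Serpinb1a at 1.496 RPKM, each apart from its neighbours. In sham quadriceps, Serpinb6a stood first at a level of 123 ± 11.1 RPKM (SD, n = 3), and Serpine2 was next at 34.2 ± 1.55. Serping1 at 17.1 and Serpinf1 at 15.4 RPKM overlapped, Serpinh1 lay below them at 10.9, and Serpinb1a at 2.02 overlapped with Serpinb9 at 1.29. Serpinb6b at 0.600 and Serpini1 at 0.231 RPKM were the lowest. In the TAC libraries 1 and 2, the levels of Serpinb6a were 134 and 99.7 RPKM, those of Serpine2 were 7.78 and 17.4 and those of Serping1 were 9.89 and 9.49, so that Serpinb6a remained first and the other genes named overlapped.

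The make-up of the family does not depend on how libraries are scaled against each other. Serpinb6a held 17.4% to 18.8% of the 9 genes' counts per base in the heart libraries, 56.2% to 62.0% in the sham quadriceps libraries and 74.5% to 84.8% in the TAC quadriceps libraries, with no overlap between the groups. Serpinh1 held 26.5% to 28.0% in heart, 5.05% to 5.78% in sham quadriceps and 1.22% to 3.86% after TAC. Serpinb6b held 17.7% to 20.3% in heart and at most 0.413% in quadriceps. Serpine2 held 3.48% to 4.68% in heart, 15.9% to 18.3% in sham quadriceps and 4.93% to 13% after TAC. Over the plain library total, without TMM, the summed level of the 9 genes was 340 to 368 CPM in heart and 348 to 373 in sham quadriceps, so these ranges overlapped.

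**Figure D1:**
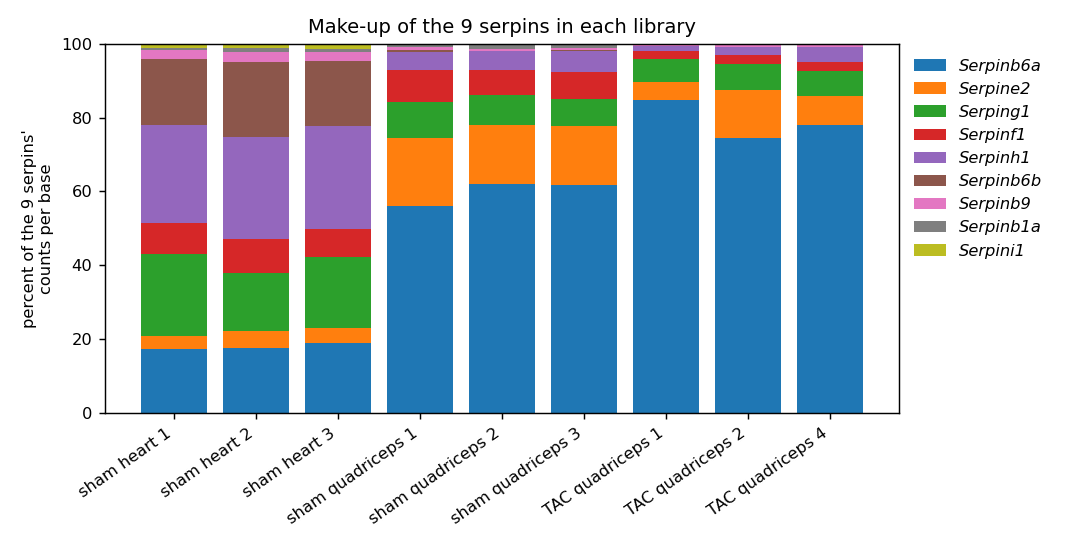
Stacked bars give, for each of the 9 libraries, the percent that each serpin takes of the family's summed counts per base of transcript. Serpinb6a takes 17.4% to 18.8% in heart, 56.2% to 62.0% in sham quadriceps and 74.5% to 84.8% in TAC quadriceps, and the bands of Serpinb6b and Serpinh1 are wide in heart only.

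Between the sham tissues, 4 of the 9 serpins were higher in quadriceps (Serpine2, Serpinb6a, Serpinb1a and Serpinf1), 4 were lower (Serpinb6b, Serpini1, Serpinh1 and Serpinb9) and Serping1 did not pass the test. The test used was edgeR's quasi-likelihood test on TMM-scaled counts, a call being an adjusted p under 0.05. Of the 24280 tested transcripts, 32.2% were called higher and 34.4% lower in quadriceps, so 8 calls among 9 genes stand in a comparison in which most transcripts differed. The groups did not overlap in 8 of the 9 genes, against 72.6% of all tested transcripts (34.2% higher and 38.3% lower in quadriceps). The values below are CPM after TMM scaling, and fold changes are quadriceps over heart on the log2 scale.

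Serpine2 encodes protease nexin-1, a secreted inhibitor of thrombin and of the plasminogen activators. Its level was 10.4, 12.9 and 11.6 CPM in the 3 heart libraries and 88.3, 93.1 and 90.9 CPM in the 3 sham quadriceps libraries. Every quadriceps library lay far above every heart library, and the spread within each tissue was small. The log2 fold change was 2.96 ± 0.11 (SE, n = 3 per group), a 7.8-fold difference (edgeR adjusted p = 3.23e-08).

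Serpini1 encodes neuroserpin, an inhibitor of tissue plasminogen activator best known from neurons. It was at 4.47, 5.19 and 5.43 CPM in heart and at 1.40, 0.794 and 0.565 CPM in quadriceps, where the counts were only 38, 19 and 10. The groups did not overlap, with heart the higher one. Its log2 fold change was -2.39 ± 0.26 (SE, n = 3 per group; edgeR adjusted p = 3.13e-05).

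Serping1 encodes the C1 inhibitor, which blocks the proteases that start the classical and lectin pathways of complement. Its level was 59.2, 38.1 and 46.2 CPM in heart and 41.4, 41.0 and 37.6 CPM in quadriceps. These ranges overlapped, heart library 1 being the highest and heart library 2 lying among the quadriceps libraries. The log2 fold change of -0.26 ± 0.15 (SE, n = 3 per group) did not pass the test (edgeR adjusted p = 0.164). Without heart library 2 it was -0.40 and passed, at an edgeR adjusted p of 0.0396. Without heart library 1 it was -0.08 and did not pass (edgeR adjusted p = 0.64). Of the 15 alternatives run, 4 gave a call and 11 did not.

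Serpinh1 helps procollagen to fold in the endoplasmic reticulum and inhibits no protease. Its level was 89.6, 86.5 and 86.2 CPM in heart and 27.7, 33.0 and 37.4 CPM in quadriceps. Heart was higher in every library, with a log2 fold change of -1.42 ± 0.12 (SE, n = 3 per group; edgeR adjusted p = 6.69e-06). The other 3 listed transcripts of the gene, which share most of their bases with it, gave values between -1.42 and -1.41.

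Serpinf1 encodes PEDF, a secreted glycoprotein without inhibitory activity that is known to act against the growth of blood vessels and to take part in bone formation. It was at 17.95, 18.5 and 15.2 CPM in heart and at 30.1, 28.8 and 29.95 CPM in quadriceps. The groups did not overlap on this scale, and the log2 fold change was 0.78 ± 0.11 (SE, n = 3 per group; edgeR adjusted p = 0.000154). Divided by library totals, the same counts gave 0.03 with an edgeR adjusted p of 0.802, so the call rests on the TMM scaling.

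Among the clade B genes, Serpinb6a and Serpinb6b went in opposite directions. Serpinb6a, an intracellular inhibitor of proteases such as cathepsin G, was at 42.1, 38.8 and 41.3 CPM in heart and at 218, 289 and 285 CPM in quadriceps. All quadriceps libraries were above all heart libraries, with a log2 fold change of 2.70 ± 0.14 (SE, n = 3 per group), which is 6.48-fold (edgeR adjusted p = 2.12e-07). Serpinb6b, its close relative in sequence, was at 48.9, 50.7 and 43.6 CPM in heart and at 1.80, 1.05 and 1.41 CPM in quadriceps. The counts behind these levels were 2331, 2549 and 1874 in heart and 49, 25 and 25 in quadriceps. Its log2 fold change of -5.06 ± 0.18 (SE, n = 3 per group) makes heart 33.3-fold higher (edgeR adjusted p = 2.01e-08). Of all 50-base windows of the Serpinb6b transcript, 2.43% are found unchanged in another serpin gene, and of those of Serpinb6a 1.81%. Serpinb6a had 5925, 6915 and 5041 counts in quadriceps, so even a small share of its reads could weigh on the low counts of Serpinb6b there. How many reads were assigned to the wrong gene of the pair was not tested.

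Serpinb1a is known to inhibit neutrophil elastase and cathepsin G, and it was the least abundant member per base in heart. Its level was 2.08, 2.29 and 2.24 CPM in heart and 3.09, 7.02 and 5.14 CPM in quadriceps, with the spread almost all in quadriceps. Its log2 fold change was 1.20 ± 0.26 (SE, n = 3 per group; edgeR adjusted p = 0.00283), and with library totals it was 0.43 and did not pass (edgeR adjusted p = 0.131). Serpinb9, the inhibitor of granzyme B, was at 11.5, 12.8 and 10.3 CPM in heart and at 6.69, 4.51 and 5.59 CPM in quadriceps. Heart was higher throughout, with a log2 fold change of -1.04 ± 0.16 (SE, n = 3 per group; edgeR adjusted p = 0.000282).

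The scaling moved all 9 values together. With library totals in place of TMM, the median log2 fold change of all tested transcripts went from -0.06 to -0.80, and the calls over all transcripts went from 48.4% higher to 17.6% higher. Then 13.3% of all tested transcripts were called higher and 62.6% lower. Of the 9 serpins, 2 were called higher (Serpine2 at 2.21 and Serpinb6a at 1.94) and 5 lower, since Serpinf1 and Serpinb1a lost their calls and Serping1 gained one at -1.003 (edgeR adjusted p = 0.00061). The order of the 9 genes stayed the same, as the plot of fold changes under both scalings shows.

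**Figure D2:**
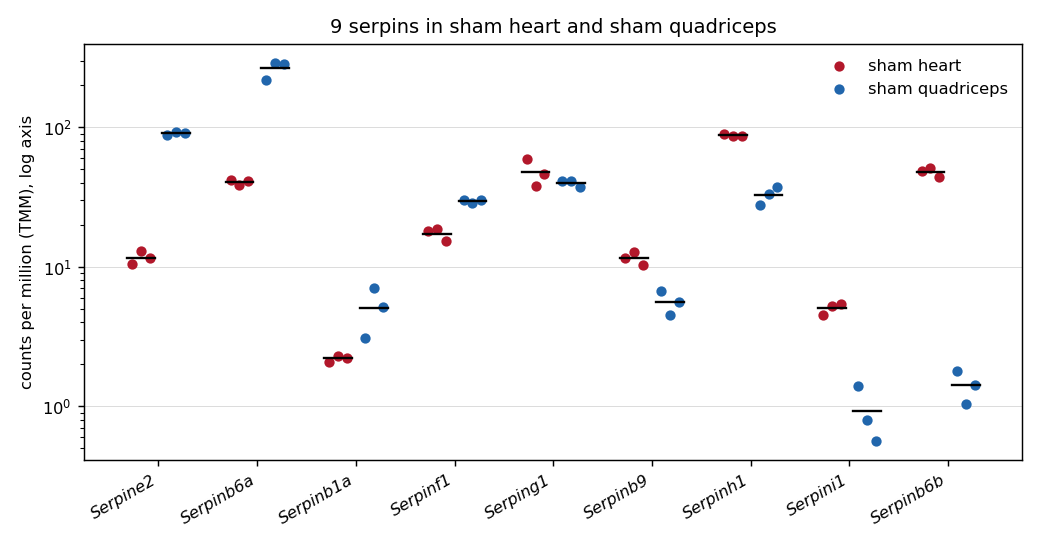
Each point is a library and each line a group mean, in CPM after TMM scaling on a log axis, for 3 sham heart and 3 sham quadriceps libraries. Serpine2 and Serpinb6a stand highest in quadriceps relative to heart, Serpinb6b falls from a mean of 47.7 to 1.42, and only Serping1 overlaps.

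The transcripts listed for Serpinb6a differ in their 5′ exons, and their counts differed between the tissues in unequal measure, a pattern noticed after the values had been seen. NM_001164118, the transcript used above, holds an exon of 222 bases at chr13:33935573-33935794 that NM_009254 lacks. GENCODE gives NM_009254 a longer first exon, of 277 against 162 bases, while the deposited lengths are 1423 bases for NM_009254 and 1644 for NM_001164118. If the counts of NM_009254 include that longer stretch, the difference between the transcripts is a net of both stretches. In heart, NM_001164118 had 18, 18 and 14 counts more than NM_009254, which is 0.899%, 0.923% and 0.79% of its 2003, 1950 and 1772 counts. In sham quadriceps it had 964, 1108 and 828 counts more, or 16.3%, 16.0% and 16.4% of its 5925, 6915 and 5041 counts. The share was close to constant within each tissue and did not overlap between them, at 0.871% ± 0.0708 in heart and 16.2% ± 0.203 in quadriceps (SD, n = 3 per group). An exact two-sided permutation test gave p = 0.1, the smallest value that 3 against 3 libraries allow. On the scale of CPM, the excess was 0.354 ± 0.0262 in heart and 42.8 ± 6.42 in quadriceps (SD, n = 3 per group), a ratio of 121, while the counts on NM_009254 itself differed by a log2 fold change of 2.45 ± 0.13 (SE, n = 3 per group; edgeR adjusted p = 3.6e-07).

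NM_001243192 begins at the far start with 5′ exons of its own and lacks both 5′ exons of NM_001164118. It had 12.2% to 12.5% fewer counts than NM_001164118 in heart and 24.4% to 27.4% fewer in quadriceps. The 222-base exon lies inside the GENCODE antisense gene 1110046J04Rik on the other strand, whose own RefSeq transcript begins beyond this exon. That transcript was at 0.21, 0.378 and 0.163 CPM in heart and at 1.62, 3.18 and 2.09 CPM in quadriceps, so it too was higher in quadriceps, with a log2 fold change of 3.16 ± 0.37 (SE, n = 3 per group; edgeR adjusted p = 5.57e-05). Because this transcript begins beyond the exon, its level gives no measure of antisense reads across the exon. The strand setting of the counting is not given in the sources used here, so reads of the exon and of an antisense RNA across it cannot be told apart. The table for TAC holds NM_001164118 alone for this gene.

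**Figure D3:**
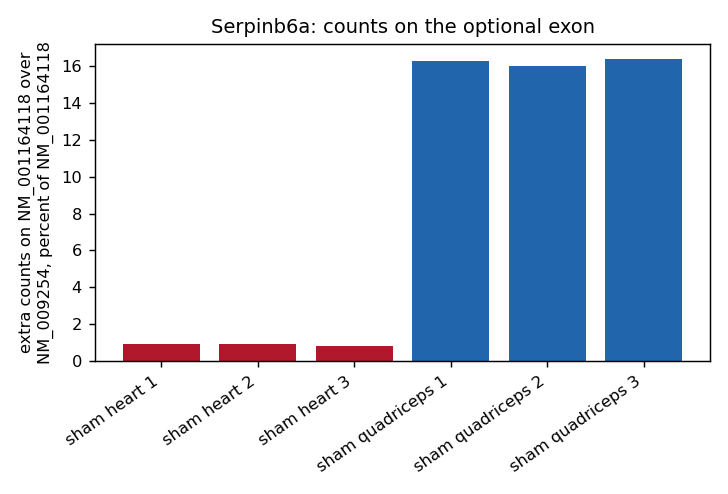
Bars give, for 3 sham heart and 3 sham quadriceps libraries, the counts on the Serpinb6a transcript NM_001164118 beyond those on NM_009254, as a percent of the former. The heart bars sit between 0.79% and 0.923% and the quadriceps bars between 16.0% and 16.4%.

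In quadriceps after TAC, 3 of the 9 serpins fell (Serpinb1a, Serpinf1 and Serpinb9), none was called higher, and the other 6 did not pass the test. Among the 586 tested genes of this table, 11.9% were called lower and 17.7% higher. The TAC libraries lay wholly below the sham libraries for 7 serpins, against 21.2% of all tested genes, and wholly above them for Serpinb6a, against 26.1%. Over both directions the groups were apart in 8 of the 9, against 47.3% of all tested genes. The unadjusted p was under 0.05 for another 4 serpins, 7 in all, against 42.5% of all tested genes. The median log2 fold change of the 9 was -0.86 (TAC over sham), and that of all tested genes was 0.03. Values below are counts divided by the TMM-scaled size of each library, called normalized counts, and the TAC libraries are given in the order 1, 2 and 4.

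Serpinb1a was at 68.3, 170 and 125 normalized counts after sham surgery and at 29.1, 24.5 and 33.0 after TAC. The sham libraries varied widely, yet each lay above every TAC library. The log2 fold change was -2.06 ± 0.37 (SE, n = 3 per group), so sham was 4.17-fold higher (edgeR adjusted p = 0.0079). Of the quadriceps members it had the largest called difference, and it kept its call under all 15 alternatives run, with values between -2.77 and -1.63.

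Serpinf1 was at 667, 695 and 729 normalized counts in sham and at 236, 241 and 267 in TAC. Both groups were tight and far apart. With a log2 fold change of -1.49 ± 0.20 (SE, n = 3 per group; edgeR adjusted p = 0.00288) it was 2.81-fold higher in sham, and the values under the 15 alternatives ran from -2.19 to -1.46 with the call unchanged in each. By RPKM, Serpinf1 stood at 3.38 in both TAC libraries against 14.1 to 16.9 in sham.

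Serpinb9 was at 148, 109 and 136 normalized counts in sham and at 67.8, 65.6 and 86.1 in TAC. The groups did not overlap, and the log2 fold change was -0.84 ± 0.25 (SE, n = 3 per group; edgeR adjusted p = 0.0345). This call was lost on leaving out sham library 1, 2 or 3 or TAC library 1 or 2, with edgeR adjusted p values of 0.0574 to 0.124 and log2 fold changes of -0.96 to -0.77.

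Serpine2 was at 1952, 2252 and 2211 normalized counts in sham and at 749, 1703 and 1071 in TAC. Each TAC library was below each sham library, with the TAC libraries spread over a wide range. A log2 fold change of -0.86 ± 0.30 (SE, n = 3 per group) did not pass (edgeR adjusted p = 0.0576). Without TAC library 2, the highest of its group, the value was -1.23 and passed at an edgeR adjusted p of 0.00895. Of the 15 alternatives run, 7 gave a call and 8 did not, with values from -1.55 to -0.70.

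Serpinh1 was at 612, 797 and 909 normalized counts in sham and at 208, 301 and 596 in TAC. TAC library 4 lay just under the lowest sham library and the other 2 well below. The log2 fold change was -1.07 ± 0.38 (SE, n = 3 per group; edgeR adjusted p = 0.0674), and without TAC library 4 it was -1.69 with an edgeR adjusted p of 0.00965. Among the 15 alternatives, 7 gave a call and 8 did not, with values from -2.23 to -0.84.

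Serpinb6b, already low in quadriceps, had 49, 25 and 25 counts in sham and 5, 18 and 15 in TAC. The groups did not overlap after scaling, and the log2 fold change of -1.40 ± 0.48 (SE, n = 3 per group) did not pass (edgeR adjusted p = 0.0576). Without TAC library 2 the value was -1.74, with an edgeR adjusted p of 0.0358. It was tested under 14 alternatives, of which 6 gave a call and 8 did not, with values from -2.22 to -0.80. Serping1 was at 915, 991 and 914 normalized counts in sham and at 843, 824 and 807 in TAC, a separation without overlap but a small one. Its log2 fold change was -0.19 ± 0.18 (SE, n = 3 per group; edgeR adjusted p = 0.468).

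Serpinb6a and Serpini1 had positive values, and neither passed. Serpinb6a was at 4816, 6988 and 6931 normalized counts in sham and at 10348, 7861 and 8605 in TAC, with all TAC libraries above all sham libraries. Its log2 fold change was 0.52 ± 0.22 (SE, n = 3 per group; edgeR adjusted p = 0.115). On the 5 libraries without TAC library 4 the value was 0.47 with TMM and -0.08 with library totals, so its direction depended on the scaling. Serpini1 was at 30.9, 19.2 and 13.7 normalized counts in sham and at 30.03, 52.8 and 38.1 in TAC, which overlap, with a log2 fold change of 0.89 ± 0.40 (SE, n = 3 per group; edgeR adjusted p = 0.125).

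**Figure D4:**
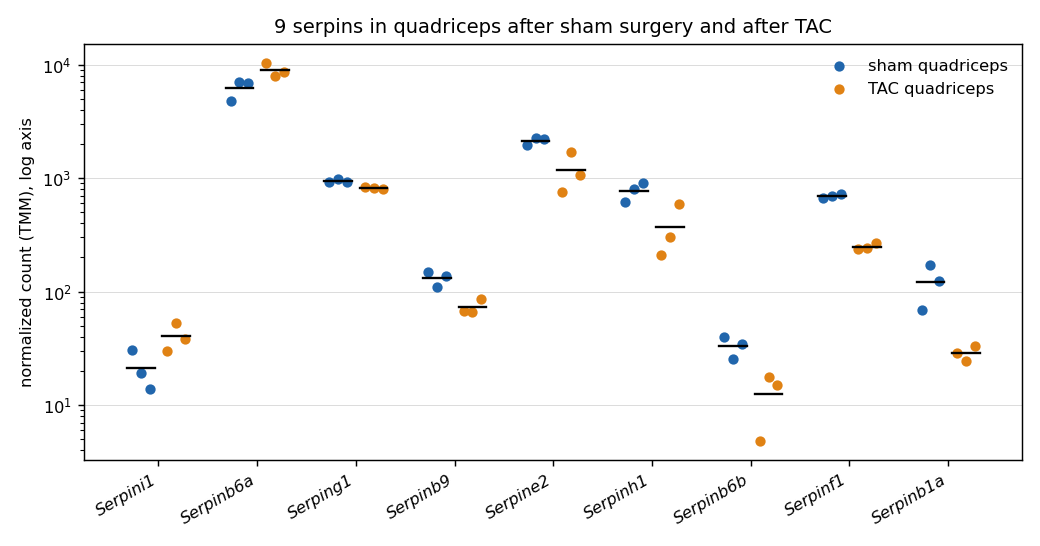
Each point is a library and each line a group mean, in TMM-normalized counts on a log axis, for 3 sham and 3 TAC quadriceps libraries. Serpinf1 and Serpinb1a separate most clearly, Serpine2 and Serpinh1 spread widely after TAC, and Serpini1 is the gene whose groups overlap.

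The scaling mattered here as well, because the genes listed for TAC are a selected fraction of each transcriptome. Library totals could be used for 5 libraries, without TAC library 4. With TMM, all 6 libraries gave a median log2 fold change of all tested genes of 0.03 and 104 higher and 70 lower calls, or 59.8% higher. With TMM on the same 5 libraries the median was -0.08, with 65 higher and 71 lower calls, or 47.8% higher, and 4 serpins were called lower, Serpinh1 among them. With library totals on these 5 libraries the median was -0.63, with 20 higher and 180 lower calls, or 10% higher. Under these totals 7 serpins were called lower, against 30.7% of all tested genes (3.41% were called higher), with log2 fold changes of -2.77 for Serpinb1a, -2.23 for Serpinh1, -2.22 for Serpinb6b, -2.19 for Serpinf1, -1.63 for Serpinb9, -1.44 for Serpine2 and -0.82 for Serping1. The edgeR adjusted p values of these 7 lay between 0.00244 and 0.0312. The median of the 9 was then -1.63, again under that of all genes.

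**Figure D5:**
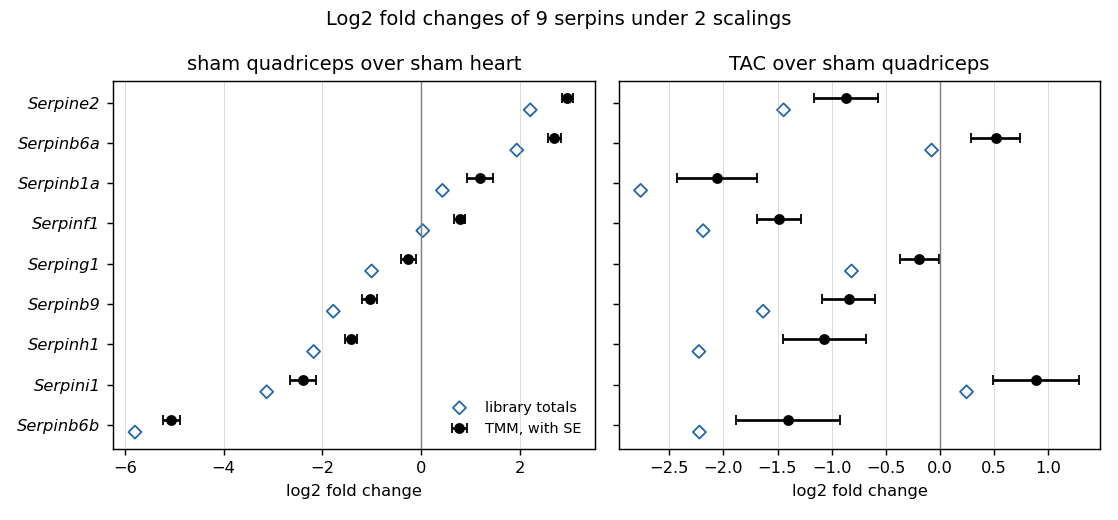
Log2 fold changes of the 9 serpins for sham quadriceps over sham heart and for TAC over sham quadriceps, with TMM scaling (filled points, bars are standard errors) and with library totals (open diamonds, for TAC on 5 libraries without TAC library 4). The diamonds lie to the left of the points in every gene, and Serpinb6a after TAC moves from 0.52 to -0.08.

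The comparisons share the sham quadriceps libraries, so the values of each gene are set side by side and no relation between them was computed. Serpine2, the gene with the largest positive value in quadriceps over heart (2.96), had -0.86 in TAC over sham, and Serpinb6a had 2.70 and 0.52. Serpinb1a had 1.20 and -2.06 and Serpinf1 0.78 and -1.49. Serpinh1, Serpinb9 and Serpinb6b were lower in both comparisons, at -1.42 and -1.07, -1.04 and -0.84, and -5.06 and -1.40, although only Serpinb9 passed in both.

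Collagens are the clients of Serpinh1. Of the 10 collagen genes in the list 8 fell after TAC and none rose, with a median log2 fold change of -1.58. With library totals on 5 libraries 9 fell, at a median of -2.35. Of all tested genes, 11.9% were called lower with TMM and 30.7% with these totals. Col3a1 fell by 3.95, Col1a1 by 3.31, Col1a2 by 2.51 and Col5a2 by 1.76 on the log2 scale, with edgeR adjusted p values of 0.000557, 0.000557, 0.000812 and 0.00288. The basement membrane collagens Col4a1 at -0.41 and Col4a2 at -0.24 overlapped between the groups. The value of Serpinh1 itself, -1.07, was smaller in size than those of the fibrillar collagens Col1a1, Col1a2 and Col3a1. Of 6 tested genes of collagen processing, Pcolce, which helps to cleave procollagen, fell with a log2 fold change of -1.01 (edgeR adjusted p = 0.0343), and the other 5 did not pass (Plod3 0.80, Bmp1 -0.76, Lox 0.62, Adamts2 0.58 and Crtap -0.56). With library totals on 5 libraries 3 of the 6 were lower, as Bmp1 at -1.61 and Crtap at -1.16 passed (edgeR adjusted p = 0.0121 and 0.032), Plod3 was at -0.25, and the median of the 6 went from 0.01 to -0.70. In quadriceps over heart, 7 of the 10 collagens were lower and none higher, with a median of -1.16, and of 18 processing genes 13 were lower and 1 higher. With library totals, all 10 collagens and 17 of the 18 were lower. Over all tested transcripts, 34.4% were called lower with TMM and 62.6% with library totals. Crtap, a partner of the prolyl 3-hydroxylase, was at -2.54 and the lysyl hydroxylases Plod2 and Plod1 at -2.38 and -1.84, while the crosslinking enzyme Lox was at 2.40 (edgeR adjusted p from 4.05e-07 to 7.8e-06).

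Of 19 listed proteases that serpins inhibit, 18 were found in the heart table, and 9 passed the count filter in quadriceps over heart. Among these, 3 were higher and 4 lower (2 and 5 with library totals). Of all tested transcripts, 32.2% were called higher and 34.4% lower (13.3% and 62.6% with library totals). The plasminogen activators split, with urokinase (Plau) at 1.57 and tissue plasminogen activator (Plat) at -1.51 (edgeR adjusted p = 2.5e-06 and 1.51e-05). Of the targets of Serping1, Masp1 was at -3.48, C1s1 at 1.31 and Masp2 at 0.64, which turned to -0.09 with library totals, and the gene copies C1rb and C1s2, at 0.503 and 0.819 CPM in heart and at 0 and 0.0368 in quadriceps, have near-identical partners, so that their counts are uncertain. After TAC, 5 proteases were listed. Masp2 rose with a log2 fold change of 1.24 (edgeR adjusted p = 0.0136), or 0.67 with library totals on 5 libraries (edgeR adjusted p = 0.155). C1s1 fell with -0.70 (edgeR adjusted p = 0.0385), while Plat at -0.63, C1ra at -0.42 and Plau at -0.34 did not pass with TMM. With library totals on 5 libraries none of the 5 was higher and 3 were lower. These were C1s1 at -1.31, Plat at -1.13 and Plau at -0.95 (edgeR adjusted p = 0.0151, 0.034 and 0.0333). Over all tested genes, 17.7% were called higher and 11.9% lower with TMM, and 3.41% and 30.7% with these totals. The receptors Lrp1, which clears serpin and protease complexes, and F2r, the thrombin receptor, were lower in quadriceps than in heart, with log2 fold changes of -2.09 and -2.03 (edgeR adjusted p = 1.09e-06 and 6.89e-07). Pnpla2, a receptor described for PEDF, was at -0.32 (edgeR adjusted p = 0.0115), and Plaur at -0.42 did not pass (it was lower at -1.16 with library totals, edgeR adjusted p = 0.014). No receptor of the list was in the TAC table.

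Of the other 55 genes named as serpins in the heart table, 14 passed the count filter. Among these, 3 were higher in quadriceps and 5 lower, against 32.2% and 34.4% of all tested transcripts. With library totals 3 were higher and 9 lower, against 13.3% and 62.6%. The summed level of the 55 was 19.0 to 24.1 CPM in heart and 12.8 to 17.0 in quadriceps. That of the 9 members was 262 to 286 and 418 to 498 CPM. The 3 largest differences were in Serpina3k (0 CPM in heart and 0.309 in quadriceps), Serpina3h (1.90 and 0.0524) and Serpina1e (0.007 and 0.157, with overlap). They belong to families of near-identical copies and rest on few counts in at least 1 tissue, so they are uncertain and no fold is given. In the TAC table, Serpinb1c at -0.65 and Serpina3n at 0.45 did not pass.

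Markers of other cell types moved with several members. After TAC, 6 of the 7 tested fibroblast markers fell (Col1a1, Col1a2, Lum, Pi16, Dpt and Mfap5), against 11.9% of all tested genes. Dcn was at 0.17 (-0.62 with library totals) and did not pass. The summed level of the list was 9415 to 12110 normalized counts in sham and 6449 to 9730 in TAC. Of 4 tested macrophage markers, 3 fell (C1qc, Lyz2 and C1qa), with a summed level of 727 to 978 in sham and 347 to 426 in TAC. All 4 fell with library totals, where 30.7% of all tested genes were called lower. Endothelial Pecam1 rose by a log2 fold change of 0.63 with TMM (edgeR adjusted p = 0.0341) but was at -0.02 with library totals, and Egfl7 at 0.07 did not pass with TMM but was lower at -0.94 with library totals (edgeR adjusted p = 0.0333). Their TMM-scaled sum was 947 to 1134 in sham and 1336 to 1585 in TAC, a direction that library totals did not give for either gene. Library totals after TAC used 5 libraries, without TAC library 4, so the libraries differed as well as the scaling. The 3 adipocyte markers did not pass, and their sum ranged from 315 to 2302 in sham and from 415 to 2860 in TAC. In the lists of fibroblast and macrophage markers no gene was at 0. The part of these cell types in the lower values of Serpinf1, Serpinh1, Serpinb1a and Serpinb9 was not tested.

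Between the sham tissues, all 8 endothelial markers were lower in quadriceps (summed 171 to 199 against 529 to 573 CPM), as were 8 of 10 macrophage markers (55.5 to 78.8 against 120 CPM) and 5 of 8 fibroblast markers (406 to 570 against 571 to 651 CPM). With library totals, all 10 macrophage and all 8 fibroblast markers were lower. Over all tested transcripts, 32.2% were called higher and 34.4% lower with TMM, and 13.3% and 62.6% with library totals. Nerve markers summed to 27.2 to 29.8 CPM in quadriceps and 8.52 to 11.6 in heart, the opposite direction to Serpini1, with 2 of 6 higher and Nrn1 lower (2 higher and 2 lower with library totals). Of 6 adipocyte markers, 5 were higher in quadriceps, and their sums, which Fabp4 dominates, overlapped at 197 to 522 and 235 to 305 CPM. Markers of neutrophils, the cells whose elastase Serpinb1a inhibits, summed to 0.159 to 0.509 CPM over all sham libraries, with Camp and Mpo at 0, and those of cytotoxic lymphocytes, the source of granzymes, to 0.273 to 0.552 CPM. The part of these cell types in the serpin values was otherwise not tested.

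The genes whose normalized counts ran most like each serpin over the 6 quadriceps libraries were listed by Pearson's r, as a description, since these libraries fall into 2 groups and share their scaling. For Serpinf1 they were Col1a1 at 0.995, Rap2b at 0.989 and Col1a2 at 0.988. For Serpine2 they were Prss23 at 0.987, Igfbp5 at 0.984 and Ostn, which encodes the myokine musclin, at 0.982. Serpinh1 ran with Pcolce at 0.977, Pltp at 0.972 and Col27a1 at 0.97, and Serpinb9 with Fstl1 at 0.985, 1190002N15Rik at 0.984 and Col11a1 at 0.976. Serpinb1a was closest to Timp2 at 0.975, Serpinb6a to Pla2g6 at 0.981, Serpinb6b to Bmp1 at 0.973 and Serping1 to Nid2 at 0.957. Serpini1 had no gene above 0.898, the value of Lrg1.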

How the data were processed

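RNA was made into ScriptSeq libraries from 3 sham heart, 3 sham quadriceps and 3 TAC quadriceps samples. Single-end reads were trimmed (Trim Galore!), aligned to mm10 (STAR) and counted on RefSeq transcripts (Rsubread) by the authors, who deposited the raw counts. RPKM values were also deposited by the authors, as counts per transcript length and library total. Their columns of fold changes and p-values were not used, nor was 1 per-library column. Counts were tested with the quasi-likelihood test of edgeR 4.0.16 in R 4.3.3, where 2 or more libraries exceeded 5 counts, with TMM and Benjamini-Hochberg adjustment over all of them. A log2 fold change's SE was derived from its F value. Where a gene had several transcripts, that in the TAC table was used. All 9 serpins were named, with the largest changes of each fixed list. Not every gene this rule selects is given. The members and lists were chosen with earlier results of these data known. The procedure was tested on simulated data. Depth is the library total. Counting error was small beside the replicate spread over all genes together, and was not compared with it gene by gene. Alternatives were DESeq2 1.42.0, limma 3.58.1 on log2 RPKM with pseudocounts of 0.5 and 0.1, other filters, library totals, a replicate block, 1 transcript per gene and leaving out each library. Sequences were searched with Biopython 1.88. Serpinb6a shares 20.7% of its 50-base windows with other genes, mainly its antisense neighbour.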

Additional observations from a re-analysis of the deposited data

How the results depend on the processing

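Between the tissues, 7 to 9 serpins were called under every alternative against 8 in the main analysis (8 to 9 on leaving out a library), and the 16182 calls over all transcripts became 9803 with 1 transcript per gene, where fewer were tested. After TAC, the 3 called serpins became 6 with DESeq2, 7 with limma on log2(RPKM + 0.5) or log2(RPKM + 0.1) and 7 with library totals on 5 libraries (4 with TMM on the same 5), and ran from 2 to 4 on leaving out a library. The 174 calls over the table ran from 60 (without sham library 1) to 215 (without TAC library 2), with 83 and 72 without sham library 2 or 3 and 125 and 136 without TAC library 1 or 4. Serpinb6a after TAC reversed to -0.0869 with limma at a pseudocount of 0.5, to -0.0872 at 0.1 and to -0.0759 with library totals (5 libraries each), and was not called in any setting. Libraries of the same number did not deviate together (r of -0.0969 to 0.0234 between the tissues, 0.0787 and -0.176 between sham and TAC). These few values cannot show whether heart and quadriceps libraries of the same number came from the same mouse. A replicate block gave 15716 calls between the tissues, with 8 serpins called, and on the 4 quadriceps libraries numbered 1 and 2 it gave 118 calls with 4 serpins, against 88 with 3 serpins without the block. Demanding 10 counts from every library removed Serpinb6b from the TAC comparison. Depth limits Serpini1 and Serpinb6b in quadriceps, with 5 to 54 counts per library. The third TAC library's total was not used, and the TMM factors of the TAC table refer to its listed genes.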
